A study of Homo sapiens with 12 samples.

Results

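The 9 genes described here are ligands and receptors of the vascular endothelial growth factor (VEGF) family. They are the ligands VEGFA, VEGFB, VEGFC, VEGFD and PGF, the receptor tyrosine kinases KDR (VEGFR2) and FLT1 (VEGFR1), and the co-receptors NRP1 and NRP2. They were taken by gene symbol from the table of each cell line, and all 9 were found in each table among 60314 entries with a symbol. The family was chosen by values measured in these libraries, namely the level of each gene per line and its 56-mer change, VEGFA being among the few genes past the threshold in C4-2B. Levels and 56-mer changes of the members are therefore a description and carry no p-value. Where the fit over all genes put a member past its threshold or short of it, this is printed as a count beside the share of all genes, and nothing is read from it. Results of tests are drawn from genes outside the family.

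The study sequenced RNA from 22RV1, a prostate cancer line that grows without androgen, and from C4-2B, a metastatic subline that descends from LNCaP and also grows without androgen. Both carry the label WT and were kept in glutamine-free medium with 5% serum, and every group, controls included, received 2 mM L-glutamine for 48 h. The groups were 22RV1 with 56-mer, 22RV1 control, C4-2B with 56-mer and C4-2B control, the 56-mer at 50 nM and 3 libraries in each. The series title calls the agent a cyanobacteria aptamer, that is, a folded nucleic acid that binds a target. The series text calls the libraries biological triplicates. Neither a vehicle nor a control oligonucleotide was named for the controls.

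VEGF ligands are secreted dimers that signal through receptor tyrosine kinases found mainly on endothelial cells. VEGFA, which drives the growth and leakiness of blood vessels, binds both FLT1 and KDR, and KDR carries most of its mitogenic signal. VEGFB and PGF bind FLT1, whereas VEGFC and VEGFD act mainly on FLT4 (VEGFR3) in lymphatic vessels. The neuropilins NRP1 and NRP2 bind VEGF and class 3 semaphorins and have no kinase domain of their own. Tumour cells are known as a source of VEGFA, whose transcription is induced by low oxygen through HIF-1.

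Values are normalized read counts, that is, reads per gene divided by 1 size factor per library. Reads per library numbered 8847368 to 13740386 in 22RV1 with 56-mer, 11834331 to 13586045 in 22RV1 controls, 12277758 to 12508539 in C4-2B with 56-mer and 10245014 to 13627140 in C4-2B controls. The library 56-mer 1 lay apart from the others by GC content in 22RV1 and by transcript length in C4-2B. Across genes its deviations from the mean of the line had a Spearman correlation of −0.589 with GC content in 22RV1, where the other 5 libraries had −0.141 to 0.379. In C4-2B the correlation with transcript length was −0.341, where the others had −0.110 to 0.260. This length trend also separated the C4-2B groups, with −0.341, −0.110 and 0.011 with 56-mer and 0.072, 0.203 and 0.260 in controls. For GC content C4-2B had −0.167, 0.305 and 0.318 with 56-mer and −0.201, −0.008 and −0.215 in controls. A trend that runs with the groups is not removed by leaving out 56-mer 1. All 10 prostate luminal markers examined, among them KLK3 and HOXB13, had a mean above 10 in both lines. Of the 10 endothelial markers CDH5 was at 0 in all 22RV1 libraries, and PECAM1, TEK, TIE1 and EMCN were at 0 in all C4-2B libraries. A mean of at least 10 was reached by 4 of them in 22RV1 and by 2 in C4-2B. Besides EGFL7 these were, in 22RV1, ESAM (45.8 with 56-mer and 66.6 in controls), CLDN5 (39.4 and 30.2) and EMCN (11.3 and 13.5). In C4-2B the other was VWF (144 with 56-mer and 148 in controls). The summed endothelial markers came to 237 to 290 normalized counts in 22RV1 with 56-mer, 253 to 377 in 22RV1 controls, 1193 to 1341 in C4-2B with 56-mer and 1060 to 1329 in C4-2B controls, most of it from EGFL7. Of the 7 leukocyte markers CD3E was at 0 in both lines and MPO in C4-2B. Their sums were 13.4 to 67.0 in 22RV1 with 56-mer, 24.0 to 50.1 in 22RV1 controls, 101 to 135 in C4-2B with 56-mer and 73.7 to 222 in C4-2B controls, the C4-2B sums mostly from CD68. Of the 7 fibroblast markers 4 had a mean of at least 10 in 22RV1 and 1 in C4-2B. Among all 7 markers PDPN was at 0 in both lines and COL1A2 and DCN in C4-2B. Their sums, mostly from COL1A1, were 360 to 463 in 22RV1 with 56-mer, 335 to 387 in 22RV1 controls, 274 to 385 in C4-2B with 56-mer and 347 to 419 in C4-2B controls.

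VEGFA was the most abundant member in every library, also per transcript length. In 22RV1 it had 2129, 2451 and 2254 normalized counts with 56-mer, against 2339, 2563 and 2308 in controls. In C4-2B it had 5149, 5093 and 5665 with 56-mer, against 6716, 7032 and 7207 in controls. The C4-2B groups did not overlap, all 3 treated libraries lying below the lowest control, as in 7.08% of the genes tested in C4-2B. The 22RV1 groups did overlap.

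The other ligands were far lower and differed in which line held them. VEGFB, known for a role in lipid handling and cell survival more than in vessel growth, had 53.5, 77.9 and 48.6 normalized counts in 22RV1 with 56-mer, against 84.0, 50.8 and 54.5 in controls. In C4-2B VEGFB had 486, 493 and 477 with 56-mer, against 516, 555 and 519 in controls. VEGFC, the main lymphatic growth factor, had 27.7, 46.5 and 43.3 in 22RV1 with 56-mer, against 52.0, 36.5 and 30.8 in controls. No read of VEGFC was counted in any C4-2B library, which allows at most 0.0417 CPM (the usual unit of reads scaled to a library total, here for 3 reads) over the 71981394 reads of that line.

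PGF, the placental growth factor, had 48.2, 31.4 and 34.5 normalized counts in 22RV1 with 56-mer, against 58.0, 30.5 and 51.9 in controls. In C4-2B it rested on 5 to 10 reads per library with 56-mer and 4 to 16 in controls. VEGFD, a second lymphatic ligand, had 8.92, 12.3 and 8.84 normalized counts in 22RV1 with 56-mer, against 21.0, 16.2 and 25.5 in controls. These groups did not overlap, as in 4.58% of tested 22RV1 genes in the lower direction. They rest on 9 to 10 reads per library with 56-mer and 16 to 29 in controls. In C4-2B VEGFD was read in 1 library of each group, with 7 reads in 56-mer 3 and 12 reads in control 2.

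The receptors with a kinase domain were nearly absent. KDR had no read in any of the 12 libraries, which allows at most 0.0408 CPM in 22RV1 and 0.0417 in C4-2B. FLT1 had no read with 56-mer in either line, against 3 reads in 1 of the 22RV1 controls and 7 and 3 reads in 2 of the C4-2B controls. At this depth no change of FLT1 could be measured. FLT4, the receptor of VEGFC and VEGFD, is not among the 9 genes but had reads in every library. FLT4 averaged 114 ± 7.25 normalized counts in 22RV1 with 56-mer and 138 ± 24.6 in controls, and 35.1 ± 11.2 in C4-2B with 56-mer and 26.9 ± 10.5 in controls (SD, n = 3).

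Of the neuropilins, NRP1 was found in both lines and NRP2 in 22RV1. NRP1 had 310, 314 and 292 normalized counts in 22RV1 with 56-mer, against 334, 341 and 306 in controls. In C4-2B NRP1 had 184, 204 and 188 with 56-mer, against 218, 119 and 225 in controls, control 2 lying well below the other 5 libraries. NRP2 had 43.7, 31.4 and 27.4 in 22RV1 with 56-mer, against 25.0, 25.4 and 22.9 in controls. The groups did not overlap, as in 4.45% of tested 22RV1 genes in the higher direction. NRP2 had no read in any C4-2B library, as for VEGFC. The plot of all members by library shows both patterns, the near-empty kinase receptors and the genes with reads in 22RV1 alone.

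**Figure D1:**
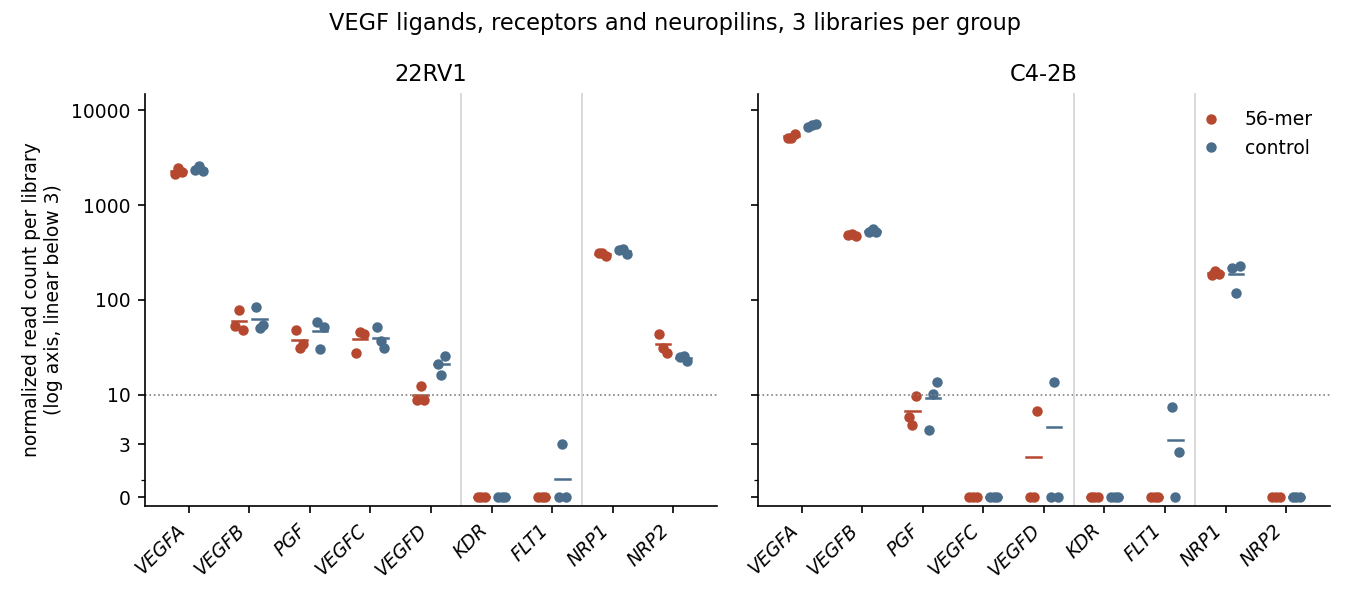
Normalized read count per library (log axis, linear below 3) of the 9 genes in 22RV1 and C4-2B; points are libraries, short lines are means of 3, and the dotted line marks the count of 10 used to filter genes for testing. VEGFA lies at 2129 or above in every library, KDR is at 0 throughout, and VEGFC and NRP2 have counts in 22RV1 and none in C4-2B.

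To compare genes with each other, CPM values were divided by the length of the longest protein-coding transcript in GENCODE 29. In 22RV1 controls VEGFA had 56.8 ± 3.14 CPM per kb, followed by NRP1 at 4.64 ± 0.252, VEGFB at 3.82 ± 1.10, PGF at 2.03 ± 0.630 and VEGFC at 1.61 ± 0.444 (SD, n = 3). VEGFD at 0.858 ± 0.192 and NRP2 at 0.306 ± 0.0163 came last among the members with reads in every library. NRP1 and VEGFB lay within their spread of each other, as did PGF and VEGFC. In C4-2B controls the order was VEGFA at 169.5 ± 7.505, VEGFB at 33.0 ± 1.35, NRP1 at 2.73 ± 0.877 and PGF at 0.418 ± 0.213. VEGFA ranked 993 of 32830 genes with reads in 22RV1 controls and 405 of 24198 in C4-2B controls. The tables of the lines were normalized separately, so their levels are set side by side without a test.

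VEGFA made up most of the ligand transcripts per length. Its share of the sum of the 5 ligands was 88.1% ± 0.897 in 22RV1 with 56-mer and 87.2% ± 3.16 in controls, and 80.8% ± 0.994 in C4-2B with 56-mer and 83.5% ± 0.710 in controls (SD, n = 3). VEGFB made up 5.90% ± 1.11 in 22RV1 with 56-mer and 5.86% ± 1.65 in controls, and 19.0% ± 1.15 in C4-2B with 56-mer and 16.2% ± 0.628 in controls. VEGFA relative to NRP1 per length was 12.4 ± 0.855 in 22RV1 with 56-mer and 12.2 ± 0.504 in controls. In C4-2B this ratio was 46.04 ± 4.32 with 56-mer and 67.7 ± 26.8 in controls, the wide spread coming with the low NRP1 of control 2. These shares depend on the length given to each gene. With the longest transcript of any type VEGFA made up 70.7% ± 2.22 in 22RV1 with 56-mer and 69.2% ± 5.90 in controls, and 55.1% ± 1.64 in C4-2B with 56-mer and 59.6% ± 1.27 in controls. VEGFB then made up 16.2% ± 2.69 in 22RV1 with 56-mer and 15.9% ± 3.63 in controls, and 44.5% ± 1.96 in C4-2B with 56-mer and 39.9% ± 1.05 in controls. With the median transcript length VEGFB made up 3.28% ± 0.631 in 22RV1 with 56-mer and 3.29% ± 0.984 in controls, and 10.9% ± 0.718 in C4-2B with 56-mer and 9.21% ± 0.388 in controls.

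**Figure D2:**
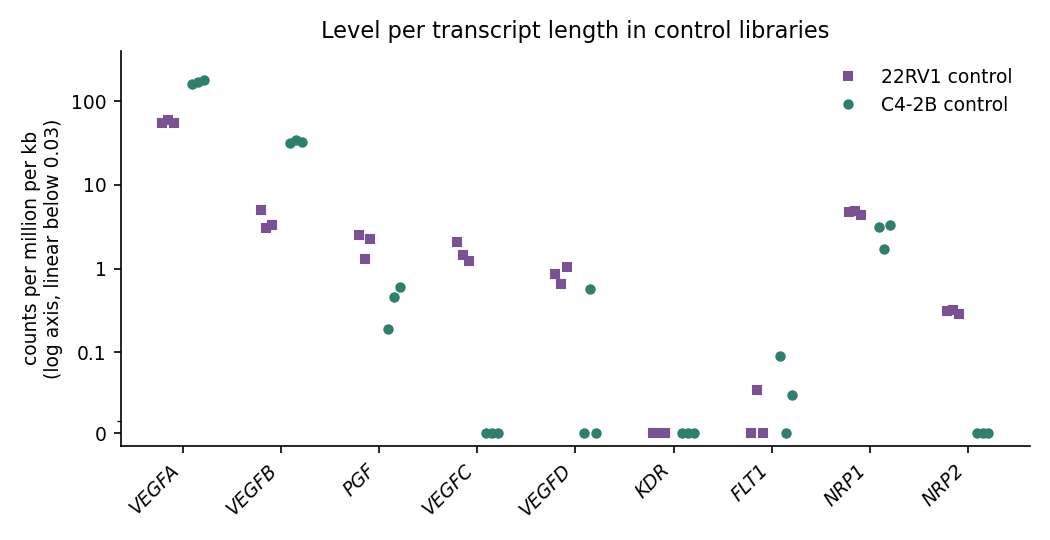
CPM per kb of transcript (log axis, linear below 0.03) in the control libraries of 22RV1 and C4-2B; points are libraries, 3 per group. VEGFA is highest in both lines, and VEGFB is above NRP1 in C4-2B and level with it in 22RV1.

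The comparison of 56-mer with control in C4-2B asks which transcripts differ when the aptamer is added to glutamine-supplied cells. VEGFA averaged 5302 ± 315 normalized counts with 56-mer and 6985 ± 249 in controls (SD, n = 3), a change of −24.1%. The fitted log2 change was −0.40 ± 0.068 (SE), with a 95% interval of −0.54 to −0.26. Leaving out 56-mer 1, the library that lay apart by transcript length, gave −0.38. Correction for GC content and transcript length gave −0.39. VEGFA was not past the threshold when any 1 of the other 5 C4-2B libraries was left out, with log2 changes of −0.45 to −0.37. No gene passed in those settings. VEGFA was 1 of the 11 genes that passed a limma adjusted p of 0.05 among 16657 tested, 0.066% of them, and 1 of the 3 that were lower, 0.018% of them. Since this call is among the reasons why the family was chosen, nothing is read from it.

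The reads of VEGFA cannot be fully separated from those of AL136131.3, a gene on the opposite strand that overlaps it in GENCODE 29, because no source states that counting used strand. AL136131.3 had 268, 383 and 415 normalized counts in C4-2B with 56-mer, against 435, 599 and 501 in controls, which is 5.20% to 8.52% of VEGFA. Its log2 change in C4-2B was −0.54 ± 0.17 (SE, limma adjusted p = 0.382). In 22RV1 AL136131.3 had 175, 290 and 204 normalized counts with 56-mer, against 271, 296 and 194 in controls, which is 8.2% to 11.8% of VEGFA. Its log2 change in 22RV1 was −0.20 ± 0.18 (SE). The part of these reads in the VEGFA counts was not tested. Fewer expressing cells and less RNA per cell cannot be told apart in bulk RNA.

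VEGFB in C4-2B averaged 486 ± 7.93 normalized counts with 56-mer and 530 ± 21.9 in controls (SD, n = 3), a log2 change of −0.13 ± 0.13 (SE). After correction for GC content and transcript length it was −0.27. Its 3 libraries with 56-mer lay below all controls, as did those of VEGFA. Such separation in the lower direction was seen in 7.08% of the genes tested in C4-2B. NRP1 had a log2 change of 0.092 ± 0.23, which was −0.21 without control 2 and 0.25 without control 3. PGF, VEGFD, FLT1, VEGFC, KDR and NRP2 did not reach 10 normalized counts in 3 of the 6 C4-2B libraries and were not fitted.

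**Figure D3:**
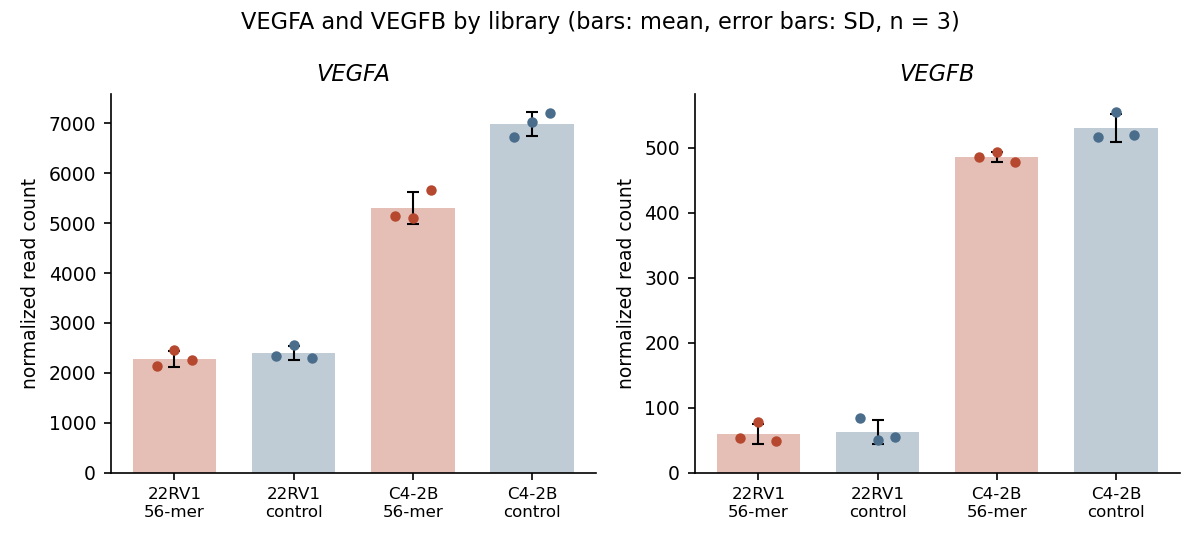
Normalized read counts of VEGFA and VEGFB by group; points are libraries, bars are means and error bars SD (n = 3). The C4-2B libraries with 56-mer lie below all C4-2B controls for both genes, as for 7.08% of genes tested in C4-2B. The 22RV1 groups overlap.

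In 22RV1 the same question was asked with the same dose and time. VEGFA averaged 2278 ± 163 normalized counts with 56-mer and 2403 ± 139 in controls (SD, n = 3), with a log2 change of −0.078 ± 0.075 (SE) and a 95% interval of −0.23 to 0.073. It was −0.13 without 56-mer 2 and −0.031 without 56-mer 1. VEGFB had −0.065 ± 0.30, and between −0.27 without 56-mer 2 and 0.16 without control 1. VEGFC had −0.023 ± 0.36, and between −0.19 without control 3 and 0.20 without 56-mer 1. PGF had −0.27 ± 0.35, and between −0.54 without control 2 and −0.088 without control 1. NRP1 had −0.099 ± 0.14. Of the 7 fitted members 0 were among the 2 of 20517 tested genes past the threshold (limma, 0.00975%), from which nothing is read.

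The members whose 22RV1 groups did not overlap were VEGFD and NRP2. VEGFD averaged 10.02 ± 1.97 normalized counts with 56-mer and 20.9 ± 4.64 in controls (SD, n = 3), with a log2 change of −0.98 ± 0.59 (SE) and a 95% interval of −2.16 to 0.19. NRP2 averaged 34.2 ± 8.501 with 56-mer and 24.4 ± 1.35 in controls, with a log2 change of 0.44 ± 0.41 and an interval of −0.37 to 1.26. Groups that did not overlap were found in 4.58% of tested 22RV1 genes in the lower direction and in 4.45% in the higher one. Without 56-mer 1, the library that lay apart, the log2 change was −0.92 for VEGFD and 0.26 for NRP2. With a pseudocount of 10 that of VEGFD was −0.62.

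**Figure D4:**
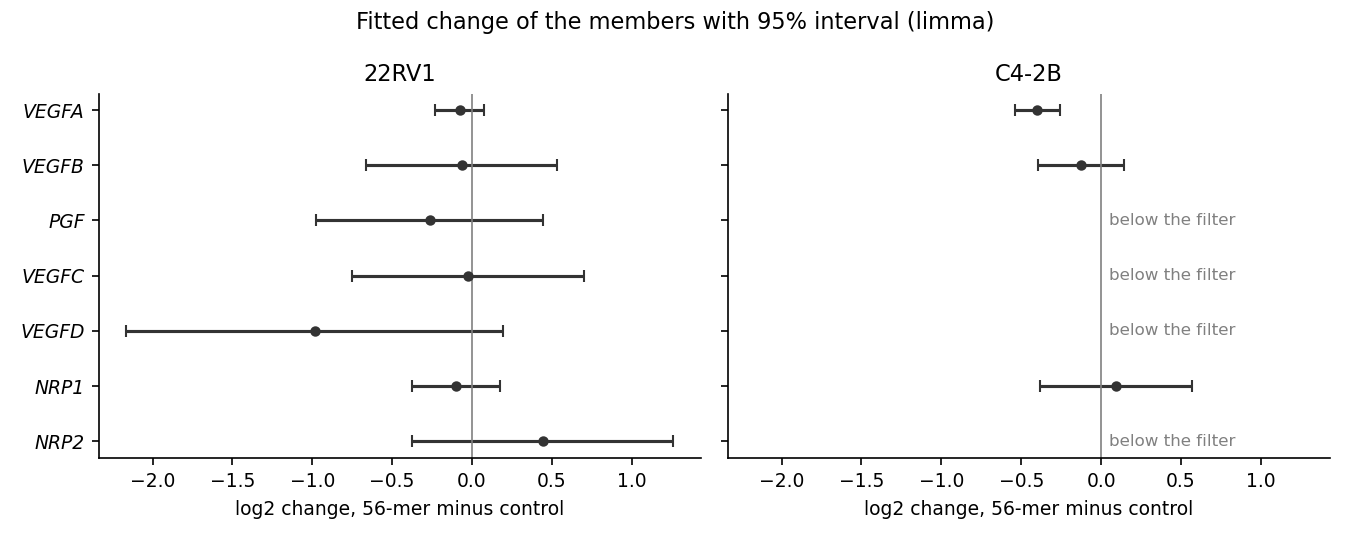
Fitted log2 change, 56-mer minus control, of the members that passed the filter on low counts in either line; points are estimates and bars 95% intervals (limma, 3 libraries per group). VEGFA has an estimate of −0.078 in 22RV1 and −0.40 in C4-2B, and the low-count VEGFD has the widest interval, −2.16 to 0.19 in 22RV1.

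The difference between the lines was fitted as the change in 22RV1 minus the change in C4-2B over all 12 libraries. For VEGFA it was 0.32 ± 0.10 (SE), with an unadjusted 95% interval of 0.11 to 0.53. The 56-mer changes per line are among the values by which the family was chosen, so nothing is read from this interval. For VEGFB the difference was 0.061 ± 0.30, and between −0.14 without 22RV1 56-mer 2 and 0.28 without 22RV1 control 1. For NRP1 it was −0.19 ± 0.28, and between −0.35 without C4-2B control 3 and 0.11 without C4-2B control 2. With limma 0 of 15527 genes passed (0%), 1227 had an unadjusted p under 0.05 (7.9%), and edgeR and DESeq2 called 1 and 4 genes.

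In the authors' deposited table VEGFA had a log2 change of −0.40 with a standard error of 0.070 in C4-2B, the largest score in size among 28773 genes. In the authors' deposited table of 22RV1 it had −0.079 with a standard error of 0.075 and ranked 7319 of 38269. These values come from the same libraries and are no further evidence.

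Genes that regulate VEGFA, carry its signal or share its functions were taken from 9 lists with 134 genes, chosen with earlier results of these data known. In 22RV1 none of the 110 tested genes passed. In C4-2B 1 of 98 did, in the higher direction (0.048% of all tested genes were called higher). This was HSPB1, a small heat shock protein that is phosphorylated downstream of KDR and p38 and helps actin remodelling. HSPB1 was already known to pass in these data when the lists were written. It had 33184, 31513 and 31319 normalized counts in C4-2B with 56-mer, against 27614, 26071 and 25540 in controls. Its log2 change was 0.28 ± 0.050 (SE, limma adjusted p = 0.0254). The call was lost under quantile normalization (log2 change 0.14, limma adjusted p = 0.260), after GC and length correction (0.14, 0.332), with edgeR (0.28, 0.128), without trend and robust variance (0.28, 0.726) and without any single C4-2B library other than 56-mer 1 (0.25 to 0.31, with adjusted p of 0.119 to 0.598). With edgeR and in those left-out settings no gene passed in C4-2B. In 22RV1 HSPB1 had a log2 change of −0.053 ± 0.059.

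Among transcript regulators of VEGFA, 17 genes were tested in each line, with a median log2 change of 0.035 in 22RV1 and −0.039 in C4-2B, beside −0.0026 over all tested genes in 22RV1 and −0.011 in C4-2B. ATF4, a stress-response transcription factor that can induce VEGFA, had 4619 ± 32.8 normalized counts in 22RV1 with 56-mer and 4403 ± 182 in controls. In C4-2B ATF4 had 10138 ± 823 with 56-mer and 9916 ± 361 in controls (SD, n = 3), a log2 change of 0.029 (95% interval −0.10 to 0.16). HIF1AN, which hydroxylates and restrains HIF-1α, had a log2 change of −0.029 in 22RV1 and 0.077 in C4-2B. ESRRA, an orphan nuclear receptor that acts with PGC-1α on VEGFA, had 0.030 in 22RV1 and −0.039 in C4-2B.

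Other oxygen-responsive genes gave 12 tested members in each line, none past the threshold, with a median log2 change of −0.12 in 22RV1 and −0.19 in C4-2B. The mitophagy receptor BNIP3 had 526 ± 37.2 normalized counts in 22RV1 with 56-mer and 610 ± 73.2 in controls. In C4-2B BNIP3 had 9839 ± 609 with 56-mer and 11942 ± 180 in controls (SD, n = 3), with a log2 change of −0.28 ± 0.061 (SE, limma adjusted p = 0.105). BNIP3 passed in 6 of the 16 alternatives in C4-2B. NDRG1, a stress-induced growth regulator, had a log2 change of 0.23 ± 0.12 in 22RV1 and −0.21 ± 0.071 in C4-2B, and their difference of 0.44 ± 0.13 (SE) had a limma adjusted p of 0.534. P4HA1, a collagen prolyl hydroxylase, had 0.10 in 22RV1 and −0.17 in C4-2B, and BNIP3L, a relative of BNIP3, 0.016 in 22RV1 and −0.23 in C4-2B.

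The signalling genes had a median log2 change of 0.030 over 29 genes in 22RV1 and of −0.040 over 27 genes in C4-2B. The survival kinase AKT1 had 0.063 in 22RV1 and −0.053 in C4-2B, and the calcineurin subunit PPP3CA 0.053 in 22RV1 and −0.021 in C4-2B. Neuropilin partners had medians of −0.013 over 11 genes in 22RV1 and −0.071 over 9 genes in C4-2B. Among them the semaphorin co-receptor PLXNA1 had −0.084 in 22RV1 and −0.14 in C4-2B, and its relative PLXNA3 0.028 in 22RV1 and 0.080 in C4-2B. GIPC1, which binds the tail of NRP1, had −0.013 in 22RV1 and 0.16 in C4-2B. Genes that process VEGFC and VEGFD had medians of −0.042 over 5 genes in 22RV1 and 0.027 over 6 genes in C4-2B. KLK3, prostate-specific antigen, which can activate both ligands, had −0.042 in 22RV1 and 0.059 in C4-2B. The lysosomal protease CTSD (cathepsin D) had −0.21 in 22RV1 and 0.15 in C4-2B, and the proprotein convertase FURIN 0.10 in 22RV1 and 0.12 in C4-2B. No gene of these lists other than HSPB1 passed in either line.

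Genes of matrix binding and release had medians of −0.095 over 14 genes in 22RV1 and 0.066 over 10 genes in C4-2B. The heparan sulfate proteoglycan SDC1 had a log2 change of −0.081 in 22RV1 and 0.079 in C4-2B, and its relative SDC4 0.0077 in 22RV1 and 0.070 in C4-2B. ADAMTS1, a protease of the extracellular matrix, had −0.018 in 22RV1 and −0.12 in C4-2B. Relatives of the PDGF and VEGF family had medians of 0.10 over 5 genes in 22RV1 and 0.10 over 4 genes in C4-2B. PDGFB, a growth factor for pericytes, had 0.10 in 22RV1 and −0.27 in C4-2B, PDGFA −0.21 in 22RV1 and −0.18 in C4-2B, and FLT4 −0.26 in 22RV1 and 0.39 in C4-2B. None of the genes tested in these lists passed.

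Other angiogenic factors had medians of −0.029 over 10 genes in 22RV1 and 0.024 over 7 genes in C4-2B. APLN, the ligand of the apelin receptor, had 5354 ± 996 normalized counts in 22RV1 with 56-mer and 5517 ± 824 in 22RV1 controls, and 400 ± 70.5 in C4-2B with 56-mer and 507 ± 35.4 in C4-2B controls (SD, n = 3). The heparin-binding factor MDK had a log2 change of −0.049 in 22RV1 and 0.10 in C4-2B, and the thymidine phosphorylase TYMP −0.091 in 22RV1 and 0.024 in C4-2B. Inhibitors of angiogenesis had medians of −0.039 over 7 genes in 22RV1 and −0.15 over 6 genes in C4-2B. The matrix protein THBS1 had 0.026 in 22RV1 and −0.30 in C4-2B, and the metalloproteinase inhibitor TIMP2 −0.20 in 22RV1 and −0.23 in C4-2B. COL18A1, the source of endostatin, had 0.11 in both lines. None of the genes tested in these lists passed either.

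**Figure D5:**
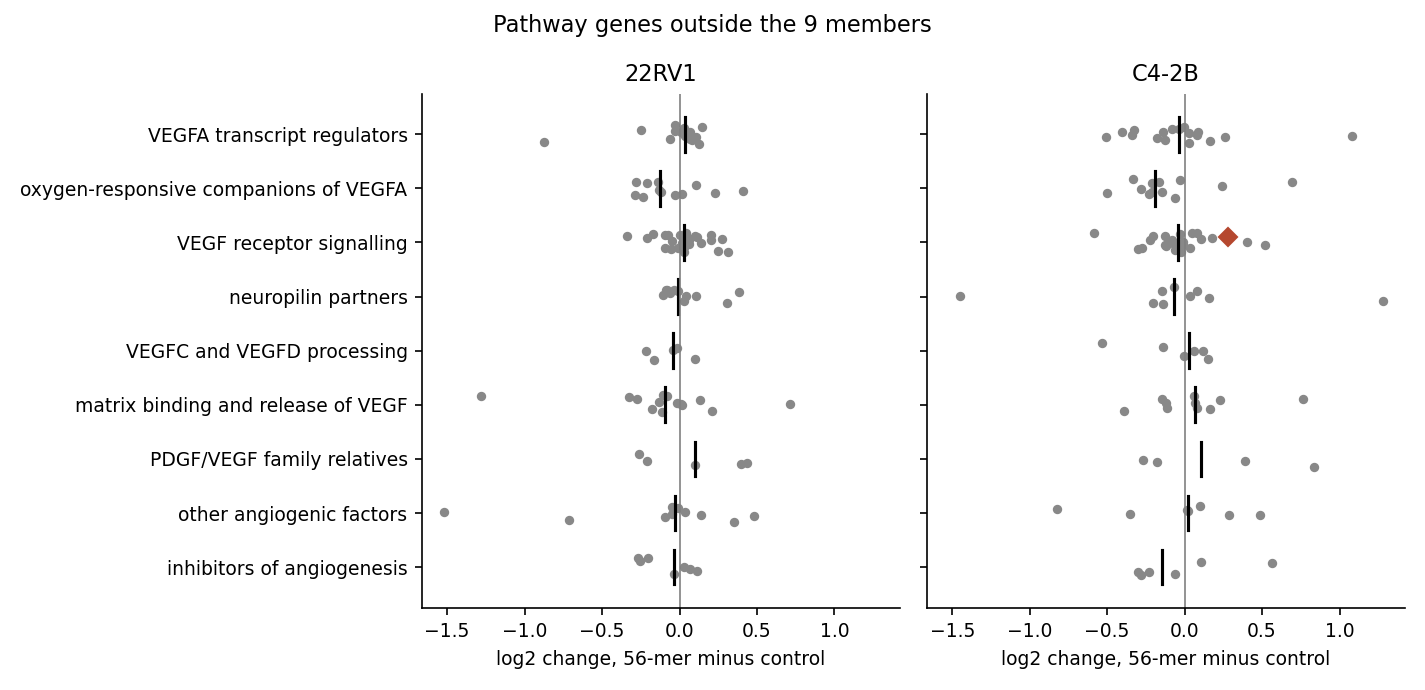
Fitted log2 change, 56-mer minus control, of the tested genes of 9 pathway lists in 22RV1 and C4-2B; points are genes, black lines are list medians, and the diamond is the 1 gene past a limma adjusted p of 0.05, HSPB1 in C4-2B. List medians lie between −0.12 and 0.10 in 22RV1 and between −0.19 and 0.10 in C4-2B.

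Likeness to VEGFA was measured as Pearson's r of log2 counts over the 12 libraries, each line centred at its own mean, across 9922 genes with a mean of at least 100 in both lines. Among the 6 most alike were WSB1, a substrate receptor of a ubiquitin ligase (r = 0.944), GTPBP2, which helps rescue stalled ribosomes (0.919), the small GTPase RHOB (0.916), the transcription factor STAT5B (0.910) and ANKEF1 (0.901). Within the 6 libraries of a line r was 0.602 in 22RV1 and 0.991 in C4-2B for WSB1. It was 0.980 in 22RV1 and 0.932 in C4-2B for GTPBP2, and 0.979 in 22RV1 and 0.905 in C4-2B for RHOB. For STAT5B r was 0.542 in 22RV1 and 0.959 in C4-2B, and for ANKEF1 0.537 in 22RV1 and 0.96 in C4-2B. WSB1 averaged 1476 normalized counts in 22RV1 with 56-mer and 1427 in 22RV1 controls, and 1008 in C4-2B with 56-mer and 1368 in C4-2B controls. Its log2 change was 0.048 ± 0.083 in 22RV1 and −0.44 ± 0.10 in C4-2B (SE, n = 3), and neither passed (limma adjusted p = 1 in 22RV1 and 0.155 in C4-2B). The same libraries, with their depth and the split into groups, stand behind every r. NRP1, the other member abundant enough to be compared, had an r of −0.099 with VEGFA over the 12 libraries, 0.642 within 22RV1 and −0.176 within C4-2B.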

How the data were processed

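RNA of 12 libraries was compared, 3 in each of 4 groups. The authors deposited 1 normalized table per cell line, whose values are signal per gene symbol: each value above 0 equals a whole number of steps, with 1 step size per library and a tolerance of 0.01, that is, read counts divided by a size factor, each line on its own. The whole reads (100% of values) were recovered from these steps; 1 entry without a symbol was left out. The authors also deposited 1 comparison table per line with, per the file headers, log2 changes, their standard errors, a score and p-values; the p-values were not used. The submitters' processing notes name DESeq; not given in the sources used here are aligner, counter, strand setting, build and annotation, and no coordinates are printed.

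Two-sided limma tests (limma 3.58.1, R 4.3.3, variance trend and robust option) used log2 of the value plus 1 for genes with at least 10 normalized counts in at least 3 of 6 libraries of a line, with Benjamini-Hochberg adjustment over all tested genes and a threshold of 0.05. A fold on this scale understates the change of low genes. The script was tested on simulated data. Transcript lengths and GC content come from GENCODE 29, which gave a length for 96.1% of tested genes in C4-2B and 95.5% in 22RV1. A count of 0 allows up to 3 reads of the total, a limit for counting error only. P-values measure the spread between these libraries. Named were all 9 members, list genes past the threshold, the 2 most abundant control genes of each list and line, and the 6 genes most like VEGFA, of which 1 is not reported here. The members and lists were chosen with earlier results of these data known. Alternatives were other normalizations, filters, pseudocounts of 0.1 and 10, a plain variance model, edgeR 4.0.16 and DESeq2 1.42.0 on recovered reads, each library left out and other transcript lengths; the GC and length correction (lowess, span 0.3) was chosen after seeing the data.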

Additional observations from a re-analysis of the deposited data

How the results depend on the processing

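The log2 change of VEGFA in C4-2B lay between −0.48 (quantile normalization) and −0.37 (without 56-mer 2) in 16 alternatives and passed in 9 of them, 1 of 6 with a library left out. VEGFA was not past the threshold with edgeR or a plain variance model. With edgeR, and in the left-out settings where VEGFA did not pass, no gene passed in C4-2B. This call is among the reasons why the family was chosen, so nothing is read from how often it passed. In 22RV1 the log2 change of VEGFA lay between −0.13 and −0.031. The called values followed under the alternatives were those of VEGFA and HSPB1 in C4-2B, and neither changed sign. The other called genes were not followed in this way. Of 1748 values of single genes under alternatives, 17 moved by more than the spread between replicates. Lost and gained calls were tallied only for list genes past the threshold or among the 2 most abundant control genes of their list. There were 9 lost calls, all by HSPB1, and 6 gained, all by BNIP3. Other list genes, HIF1A and SLC2A1 among them, were not followed under the alternatives. The lost calls of VEGFA are not in this tally. The number of genes past the threshold in C4-2B, 11 as reported, was 34 with no filter, 42 with DESeq2, 20 after GC and length correction, 1 without trend and robust variance and 0 with edgeR (1399 at an unadjusted p under 0.05), and 0 to 81 with a library left out (81 without 56-mer 1). Of the 11 genes, 8 were higher and 3 lower, against 2 and 8 of 10 under quantile normalization and 4 and 7 of 11 with equal totals. In 22RV1, with 2 as reported, it was 11 with no filter, 8 after the correction, 0 without trend and robust variance (904 at an unadjusted p under 0.05) and 0 to 11 with a library left out (11 without 56-mer 3, 5 without 56-mer 1). For the difference, 0 as reported, it was 1 under quantile normalization, 5 with no filter, 1 without trend and robust variance, 1 with edgeR, 4 with DESeq2, 5 after the correction and 0 to 13 with a library left out (13 without C4-2B 56-mer 1). The cause of these shifts was not tested. With the longest transcript of any type, the control level was 16.5 CPM per kb for VEGFA and 1.10 for PGF in 22RV1, and 49.2 for VEGFA in C4-2B. With the median transcript length it was 183 for VEGFA, 6.42 for VEGFB, 2.35 for VEGFC, 1.32 for VEGFD, 2.77 for PGF, 0.0439 for FLT1, 10.9 for NRP1 and 1.90 for NRP2 in 22RV1, and 545 for VEGFA, 55.4 for VEGFB, 0.148 for FLT1 and 6.41 for NRP1 in C4-2B; NRP2 then lay above VEGFD in 22RV1. No paired analysis was possible because replicate numbers follow only the accession order. PGF, VEGFD and FLT1 in C4-2B rest on at most 16 reads per library, which limits what can be measured of them.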

Other observations

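TIMP1, an inhibitor of metalloproteinases and the second most abundant control gene of its list in 22RV1, had 1106, 1185 and 1127 normalized counts in 22RV1 with 56-mer, against 1069, 1206 and 1241 in controls. In C4-2B it had no read in the 3 libraries with 56-mer, against 8, 7 and 11 reads in controls. Over the group this is 9.23-fold lower when 3 reads are taken in place of the 0. This value leaves out the counting error of the 26 control reads and the spread between libraries. TIMP1 did not reach the filter on low counts in C4-2B and was not tested.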
